A study of Mus musculus with 10 samples.

Results

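The orphan and adhesion G protein-coupled receptors were followed in cultured mouse bone marrow-derived macrophages with and without plasminogen. Members were all genes of the deposited table whose symbol begins with Gpr and a number or with Adgr, 89 of 16936 genes, of which 62 are Gpr and 27 Adgr genes. The rule used names and no measured value. Marrow cells had been grown for 7 days with the cytokine GM-CSF at 50 ng/mL, and 5 samples were then left untreated while 5 were given PLG, named in the design text as human plasminogen, for 24 h. Plasminogen is the precursor of the protease plasmin, and the series' title concerns activation of macrophages through the receptor Tlr2. Strain, age and genotype of the mice are not given in the labels used here, and no label ties a replicate to a separate mouse or culture, so the p-values reflect only how far these samples scatter, which may be technical. The labels name no group given a control protein, so effects of plasminogen cannot be told apart from those of other material in the preparation.

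G protein-coupled receptors cross the membrane with several helices and pass signals to heterotrimeric G proteins, whose alpha subunits raise or lower cyclic AMP or activate phospholipase C. Genes named Gpr were found by sequence before a ligand was known: some have since been paired with fatty acids, lysophospholipids, oxysterols or protons, and others remain orphans. Adhesion receptors, named Adgr, carry a long extracellular part that is cleaved near the membrane and that binds matrix or neighbouring cells; Adgre1, the F4/80 antigen, is the classical surface marker of mouse macrophages. Several Gpr proteins sit in the Golgi or lysosome and are not known to act as receptors at the cell surface.

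Values were FPKM, fragments scaled by gene length and by the depth of the library, and whole reads could be worked back from them. Table genes took 28426106 to 64214558 reads per library. The depth used for scaling was 31977229 to 70737080 reads, so 1 read on a gene of 1 kb was worth 0.0141 to 0.0313 FPKM. Correlations between libraries were 0.976 to 0.995 for the same group and 0.847 to 0.868 across groups. The labelled cell type was checked against marker lists. All 9 macrophage markers passed the expression filter, with 2 markers higher (Cd14 and Adgre1) and 6 lower. Their summed level was 6039 to 7561 FPKM in untreated and 3264 to 3390 FPKM in PLG samples. Lyz2 alone held 5098 to 6616 and 1902 to 2107 FPKM of these sums. Conventional dendritic cell markers summed to 36.7 to 66.8 FPKM untreated and 518 to 585 FPKM with PLG. Most of both sums was Ccr7, at 26.8 to 53.4 and 507 to 574 FPKM. Ccr7, Flt3 and Zbtb46 were higher, Flt3 having passed the filter through the PLG group only (limma over all genes, adjusted p = 3.67e-07), and Clec9a was lower. Xcr1, under the filter, was at 0 to 0.119 and 0.088 to 0.224 FPKM, higher with PLG (limma over all genes, adjusted p = 0.0102). T cell, B cell, NK cell and fibroblast markers summed to at most 1.17 FPKM in every library. Of these, all under the filter, Cd8a and Dcn were higher with PLG and Pdgfra was lower (limma over all genes, adjusted p = 0.00244, 0.0166 and 0.048). Neutrophil markers summed to 7.49 to 18.1 and 14.8 to 23.2 FPKM, with S100a8 and Camp higher with PLG (7.07 and 11.9 FPKM, and 0.254 and 2.40 FPKM, on average; limma over all genes, adjusted p = 0.00267 and 0.00079), S100a9 not passing, and Ly6g and Mpo with no read untreated and 17 and 10 reads with PLG. Eosinophil markers summed to at most 0.724 and 2.81 FPKM, mast cell markers to 7.40 to 16.9 and 8.18 to 11.8 FPKM, and endothelial markers to 5.34 to 6.69 and 4.98 to 6.37 FPKM. The eosinophil markers Prg2 and Epx, under the filter, were higher with PLG (limma over all genes, adjusted p = 0.0243 and 0.0176), and Ccr3 did not pass. Among mast cell markers Kit was lower over the filtered genes (limma, adjusted p = 0.0434) but did not pass over all genes (limma, adjusted p = 0.0989). The part of these marker differences in the receptor results was not tested, and in bulk RNA a change in the share of a cell type cannot be told apart from a change of RNA per cell.

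Of the 89 genes, 29 had 1 FPKM or more in 5 samples or more, 24 Gpr and 5 Adgr genes, and 22 of these did so in all 10 samples. The other 60 lay below: 42 had at least 20 reads over all libraries and 18 had fewer. A pair of fits were made with limma on log2(FPKM + 1) and Benjamini-Hochberg adjustment at 0.05, one over the 9997 genes that passed this filter and one over all 16927 genes with any signal. In the fit of all genes 19 members were higher with PLG, 15 were lower and 55 did not pass; among all genes 19.8% were higher and 20.1% lower (39.9% in all). In the filtered fit 14 of the 29 were higher and 12 lower, beside 29.1% higher and 31.3% lower of all genes tested (60.4% in all). Gpr18 and Gpr162 passed the filter through the group where they are higher only, so they had to differ to be tested; in the fit of all genes their limma adjusted p values were 0.000109 and 0.000548. At a change of at least 1 on the log2 scale, 7 of the 29 were higher and 6 lower, beside 8.35% and 5.67% of the genes tested. Groups did not overlap for 23 of the 29 (47.2% of genes tested) and for 30 of the 89 members (31.9% of all genes), of which 17 had PLG above and 13 had it below (15.8% and 16.1% of all genes). The median log2 change was 0.05 over the 29 members and -0.02 over all genes tested. Fold changes on the log2(FPKM + 1) scale understate the change of low genes.

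Summed over all 89 genes, the level was 346.7 ± 12.9 FPKM (SD, n = 5) untreated and 463.3 ± 11.4 FPKM with PLG, and Adgre1 alone made up 23.1% ± 0.913 and 38.2% ± 1.34 of that sum. Without Adgre1 the sums were 266.7 ± 9.71 and 286.4 ± 5.23 FPKM, and their ranges overlapped (256.8 to 280.7 and 279.4 to 293.2). The order changed beneath that total. By mean FPKM the leading genes in untreated samples were Adgre1, Adgre5, Gpr137b, Gpr141 and Gpr108; with PLG they were Adgre1, Gpr132, Gpr84, Gpr108 and Gpr137b. The spread between neighbours in these orders was not tested.

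**Figure D1:**
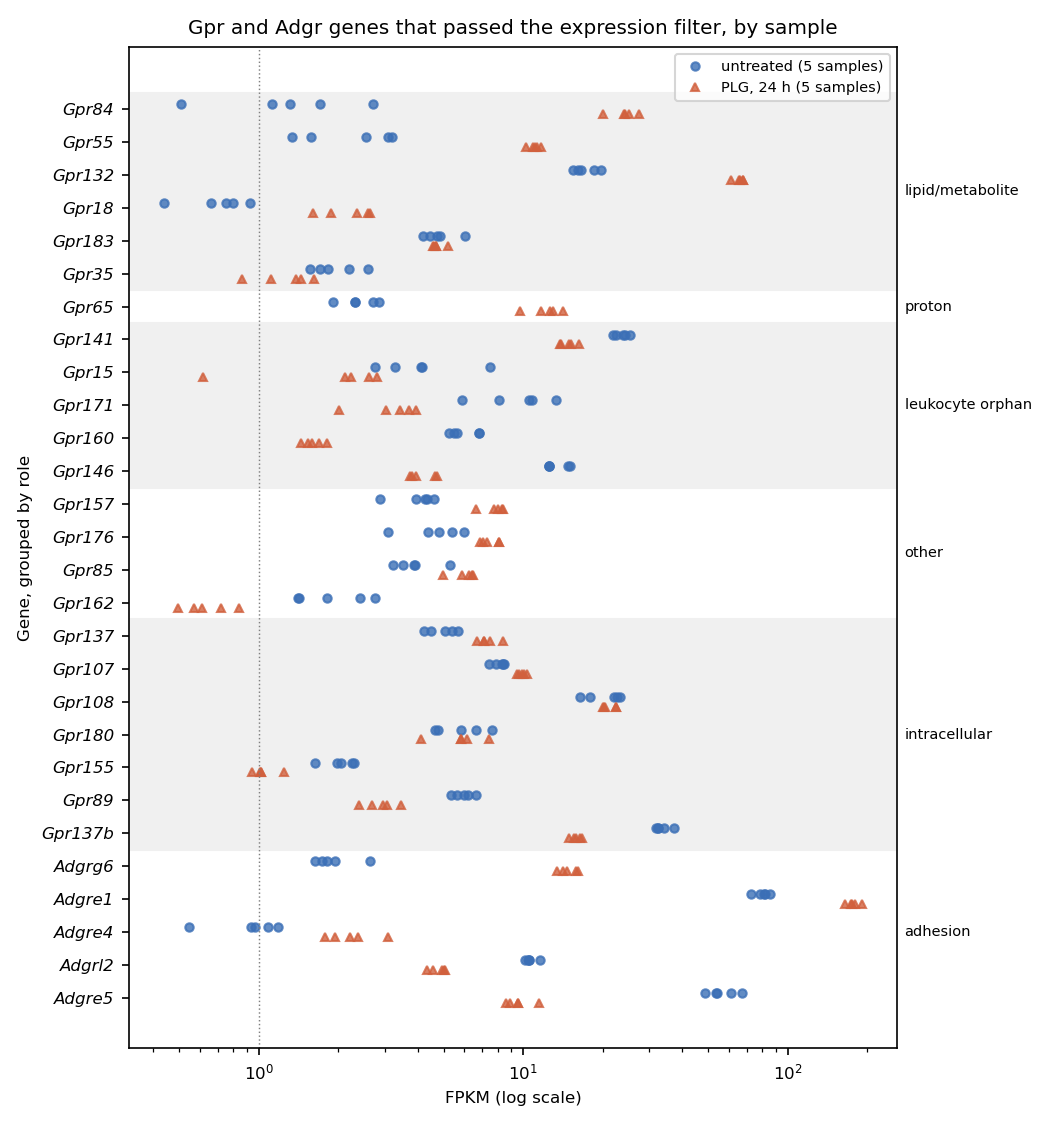
FPKM (x axis, log scale) of 28 of the 29 Gpr and Adgr genes that passed the filter, 1 row per gene grouped by role, with a circle for each of the 5 untreated samples and a triangle for each of the 5 PLG samples; the dotted line marks 1 FPKM. The symbols of the groups are apart for 22 genes and overlap for the remaining 6, and Adgre1 lies furthest right in both groups.

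Lipid and metabolite receptors included the largest log2 rise among the 29 tested members. Of 10 members 6 were tested, 4 rose, Gpr35 fell and Gpr183 did not pass, beside 29.1% higher and 31.3% lower of all tested genes. Gpr18, among the 4, passed the filter through the PLG group only. In the fit of all genes 5 of the 10 were higher and 2 lower, beside 19.8% and 20.1% of all genes. Gpr84 (chr15:103308235-103310612, minus strand, GRCm38), a receptor of medium-chain fatty acids on myeloid cells, was at 1.71, 2.72, 1.13, 0.508 and 1.31 FPKM in untreated samples 1 to 5 and at 24.2, 20.03, 25.2, 24.0 and 27.3 FPKM in PLG samples 1 to 5. Every PLG sample was far above every untreated one. The means were 1.47 ± 0.819 and 24.1 ± 2.65 FPKM (SD, n = 5), a 16.4-fold ratio, and the log2 change was 3.40 (SE 0.185, limma with Benjamini-Hochberg adjustment, adjusted p = 1.88e-09). An antisense gene, Gm49482, covers 39.5% of its exonic bases; no source used here gives the strand setting of the counting, and reads of both may be mixed.

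Gpr132 (chr12:112850873-112868228, minus strand), a receptor linked to oxidised fatty acids and lysophospholipids, was the most abundant lipid-linked member. Untreated samples held 19.7, 16.1, 18.5, 15.5 and 16.5 FPKM and PLG samples 66.3, 67.5, 65.2, 61.3 and 67.8 FPKM. All PLG samples stood well clear of the untreated ones, and both groups were tight. Its log2 change was 1.87 (SE 0.0641, limma, adjusted p = 1.95e-11).

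Gpr55 (chr1:85938318-85961007, minus strand), a receptor of lysophosphatidylinositol, was at 3.19, 1.33, 2.55, 1.58 and 3.09 FPKM untreated and at 10.9, 11.1, 11.7, 10.3 and 11.2 FPKM with PLG. The untreated samples spread more than the PLG samples, with no overlap, and the log2 change was 1.89 (SE 0.149, limma, adjusted p = 9.46e-08). Gpr18 (chr14:121911253-121915781, minus strand), which has been proposed to bind N-arachidonoyl glycine, was low: untreated samples held 0.66, 0.803, 0.927, 0.752 and 0.438 FPKM, each under 1 FPKM, and PLG samples 1.88, 2.64, 1.61, 2.35 and 2.59 FPKM, each above it. Its log2 change was 0.90 (SE 0.117, limma over all genes, adjusted p = 0.000109), the fit of all genes being used because it passed the filter through the PLG group only.

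The 250 bases before the RefSeq start (GRCm38.p6) were searched on both strands for 5 motifs in the 23 tested members with such a window. NF-kB sites, by name, were in none of these members and in 3.9% of 32851 windows of all genes; TGANTCA (AP-1) was in Gpr35 and Gpr15 and in 6.75% of windows; a pair of GAAA words 2 bases apart, as in interferon response elements, was in Gpr18 and Gpr15 and in 2.98%; GAGGAAGT (PU.1, the ETS factor of myeloid cells) was in Gpr55 and Gpr137 and in 2.44%; TGACGTCA (CRE) was in none and in 1.55%. The 23 members have 29 windows, so members are counted by gene while the shares are by window. The bases after the start were found in a transcript of the same gene for 23 of the 29 windows. In Gpr35 the RefSeq start of the matching window lies 28038 bases from the gene's annotated start. Matches are a description of letters and not of binding. The windows of Gpr55 (chr1:85961056-85961305) and Gpr18 (chr14:121915889-121916138), both on the minus strand, are shown because they are the risen lipid-receptor genes with a match. Capitals mark the match, 105 bases before the start in Gpr55, where GAGGAAGT stands on the opposite strand, and 41 bases before it in Gpr18.
Gpr55: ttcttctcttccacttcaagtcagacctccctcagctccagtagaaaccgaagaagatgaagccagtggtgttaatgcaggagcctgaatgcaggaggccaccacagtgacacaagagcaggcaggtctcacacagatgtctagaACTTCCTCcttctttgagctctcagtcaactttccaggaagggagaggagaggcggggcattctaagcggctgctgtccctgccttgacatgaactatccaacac
Gpr18: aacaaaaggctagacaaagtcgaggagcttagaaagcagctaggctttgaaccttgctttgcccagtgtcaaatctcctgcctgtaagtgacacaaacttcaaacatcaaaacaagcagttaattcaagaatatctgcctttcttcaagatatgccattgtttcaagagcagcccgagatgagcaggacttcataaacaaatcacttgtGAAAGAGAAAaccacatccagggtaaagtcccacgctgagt

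Gpr183 (EBI2), which guides leukocytes along oxysterol gradients, lies 36.8 kb from Gpr18 on chromosome 14, and both genes sit inside introns of Ubac2 on the opposite strand. Untreated samples held 4.84, 6.03, 4.71, 4.44 and 4.19 FPKM and PLG samples 5.21, 4.67, 4.60, 4.55 and 4.68 FPKM. The groups overlapped, and the log2 change of -0.02 (SE 0.0857) did not pass (limma, adjusted p = 0.867), while Ubac2 itself went from 10.3 ± 1.29 to 14.6 ± 1.82 FPKM. Gpr35, activated by kynurenic acid in experiments, was at 2.20, 2.60, 1.56, 1.83 and 1.70 FPKM untreated and at 1.44, 1.62, 1.11, 0.868 and 1.38 FPKM with PLG. Its groups overlapped slightly, and it fell by 0.38 on the log2 scale (SE 0.120, limma, adjusted p = 0.0142). In the fit of all genes its call (adjusted p = 0.031) was lost without untreated sample 1 or 2 or without PLG sample 3 or 4 (limma, adjusted p = 0.06 to 0.0711).

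Proton-sensing receptors respond to acid outside the cell. Gpr65 (chr12:98268635-98276644, plus strand), which couples to cyclic AMP, was at 2.31, 2.86, 2.698, 1.90 and 2.32 FPKM untreated and at 11.7, 9.73, 14.1, 13.0 and 12.6 FPKM with PLG. Every PLG sample was above every untreated one (log2 change 1.95, SE 0.103, limma, adjusted p = 1.46e-09). Gpr132, related to this class by sequence, is on chromosome 12 as well. Gpr4, of the same class, was under the filter and is given with the low genes. An antisense gene, Gm47566, covers 24.7% of the exonic bases of Gpr65.

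Leukocyte orphan receptors held 11 members, of which 5 were tested and all 5 of those fell, beside the 31.3% of all tested genes that were lower. In the fit of all genes the group had the same 5 lower, Gpr33 higher and 5 that did not pass. The role groups were drawn up with earlier results of these data known. Gpr146 (chr5:139377697-139396415, plus strand), an orphan studied for its part in liver cholesterol metabolism, was at 15.1, 14.8, 12.5, 12.5 and 12.5 FPKM untreated and at 3.93, 4.71, 3.79, 3.73 and 4.63 FPKM with PLG. No PLG sample came near the untreated range, and it fell by 1.49 on the log2 scale (SE 0.0828, limma, adjusted p = 2.41e-09). Its host gene on the opposite strand, 3110082I17Rik, was also lower (4.54 ± 0.649 and 2.54 ± 0.564 FPKM, limma, adjusted p = 0.000318).

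Gpr160, an orphan for which a neuropeptide ligand has been proposed, was at 6.82, 6.83, 5.25, 5.49 and 5.64 FPKM untreated and at 1.81, 1.60, 1.54, 1.44 and 1.69 FPKM with PLG (fell by 1.42 on the log2 scale, SE 0.0875, limma, adjusted p = 7.2e-09). Gpr171, a relative of the P2Y receptors, was at 10.5, 13.3, 8.10, 5.86 and 10.8 and at 3.04, 2.02, 3.95, 3.71 and 3.43 FPKM. Untreated samples of Gpr171 varied widely, yet all lay above the PLG samples (fell by 1.32, SE 0.183, limma, adjusted p = 2.74e-05). Gpr141, of unknown ligand, was the most abundant of these orphans, at 21.8, 23.8, 22.4, 25.3 and 24.2 FPKM untreated and 13.7, 13.9, 15.2, 16.3 and 14.9 FPKM with PLG (fell by 0.63, SE 0.0601, limma, adjusted p = 6.12e-07). Its paralog Gpr141b lies 16.7 kb away and was at 0 to 0.332 and 0 to 0.4 FPKM, and reads that match both could be divided between them. Gpr15, a homing receptor of T cells for the gut, was at 4.12, 2.75, 4.14, 3.28 and 7.47 and at 2.24, 0.615, 2.12, 2.80 and 2.62 FPKM. Untreated sample 5 was high, PLG sample 2 was low and the groups touched (fell by 0.80, SE 0.244, limma, adjusted p = 0.0121); its exons share 12.5% of their bases with Cpox on the other strand, which was also lower. Its call in the fit of all genes (adjusted p = 0.0409) was lost when any 1 sample other than untreated sample 2 and PLG sample 4 was left out (limma, adjusted p = 0.0532 to 0.0889).

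Intracellular or non-classical members were split: of 8 genes 7 were tested, 2 rose, 3 fell and 2 did not pass. Among all tested genes 29.1% were higher and 31.3% lower. Gpr137b (chr13:13357620-13394014, minus strand), a lysosomal membrane protein linked to mTORC1, was at 32.4, 33.9, 31.9, 37.3 and 32.4 FPKM untreated and at 14.8, 15.8, 16.3, 16.7 and 15.6 FPKM with PLG, apart in every sample (log2 change -1.03, SE 0.0547, limma, adjusted p = 1.44e-09). Its relative Gpr137 went the other way, from 4.97 ± 0.613 to 7.35 ± 0.651 FPKM (log2 change 0.49, SE 0.0852, limma, adjusted p = 0.00022). That gene shares 15.4% of its exonic bases with Bad on the other strand, which did not pass. Gpr155, a lysosomal cholesterol sensor, was at 1.64 to 2.29 FPKM untreated and 0.943 to 1.248 FPKM with PLG (fell by 0.57, limma, adjusted p = 7.31e-05). Gpr89, a Golgi anion channel that sets luminal pH, was at 5.34 to 6.65 and 2.41 to 3.44 FPKM (fell by 0.84, limma, adjusted p = 1.63e-06). Gpr107, a protein of the Golgi and endosomes, was at 7.43 to 8.44 and 9.51 to 10.3 FPKM (log2 change 0.26, limma, adjusted p = 0.0013). Its relative Gpr108, at 23.3, 22.6, 16.4, 22.0 and 17.9 FPKM untreated and 20.2, 20.3, 20.05, 22.4 and 22.5 FPKM with PLG, had overlapping groups and a log2 change of 0.05 (SE 0.0902, limma, adjusted p = 0.625). Gpr180 was at 4.65 to 7.62 and 4.11 to 7.41 FPKM, with a log2 change of -0.01 (SE 0.141, limma, adjusted p = 0.971).

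Among the 30 other Gpr genes 4 were tested, 3 higher and 1 lower, beside 29.1% higher and 31.3% lower of all tested genes. Gpr157, a receptor of the primary cilium, was at 4.25, 2.87, 4.31, 3.92 and 4.62 FPKM untreated and at 8.38, 7.73, 8.33, 6.62 and 8.03 FPKM with PLG, without overlap (log2 change 0.83, SE 0.102, limma, adjusted p = 8.79e-06). Gpr176, known from the brain's circadian clock, was at 3.08 to 5.96 and 6.87 to 8.14 FPKM (log2 change 0.59, limma, adjusted p = 0.000885). Gpr85, a conserved orphan of the brain, was at 3.23 to 5.29 and 4.97 to 6.47 FPKM, with overlap (log2 change 0.50, limma, adjusted p = 0.00107). Gpr162, an orphan, was the one tested gene of the 4 that fell. Untreated samples held 1.41, 2.75, 1.42, 1.82 and 2.41 FPKM and PLG samples 0.844, 0.723, 0.613, 0.568 and 0.497 FPKM. All PLG samples were under 1 FPKM, so it passed the filter through the untreated group only (fell by 0.82, SE 0.134, limma over all genes, adjusted p = 0.000548).

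Adhesion receptors held the most abundant member, Adgre1, and the largest log2 fall among the 29 tested members, Adgre5. Of 27 members 5 were tested, 3 rose and 2 fell, beside 29.1% higher and 31.3% lower of all tested genes. All 3 Adgre genes were among the 5. Adgre1 (chr17:57358691-57483527, plus strand), F4/80, was at 85.8, 81.7, 72.8, 78.6 and 81.2 FPKM untreated and at 164, 176, 180.1, 191 and 174 FPKM with PLG. Every PLG sample was above every untreated one, and the log2 change was 1.13 (SE 0.0532, limma, adjusted p = 4.05e-10); the other macrophage markers apart from Cd14 and Fcgr1 were lower. Adgre5 (chr8:83723251-83741326, minus strand), CD97, a receptor of the complement regulator Cd55, was at 53.3, 61.2, 54.0, 67.2 and 48.6 FPKM untreated and at 9.57, 11.4, 9.54, 8.89 and 8.64 FPKM with PLG. Its place moved from second among the members by mean FPKM to well below the leading 5. The means were 56.9 ± 7.34 and 9.61 ± 1.09 FPKM (SD, n = 5), a level 5.91-fold lower (log2 change -2.44, SE 0.0899, limma, adjusted p = 3.91e-11). Ddx39, on the opposite strand, covers 23.8% of its exonic bases and was at 9.99 ± 1.29 and 7.45 ± 0.328 FPKM.

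Adgrg6 (chr10:14402583-14545659, minus strand), Gpr126 by its older name, a receptor that Schwann cells need to form myelin, was at 1.94, 1.63, 2.63, 1.73 and 1.82 FPKM untreated and at 15.8, 13.4, 16.2, 14.2 and 14.7 FPKM with PLG. It was low in each untreated sample and 7.62-fold higher by the ratio of means with PLG (log2 change 2.43, SE 0.0928, limma, adjusted p = 5.48e-11). Adgre4, a myeloid relative of F4/80, was at 1.09, 1.18, 0.939, 0.546 and 0.968 FPKM untreated and at 2.22, 3.08, 2.38, 1.78 and 1.94 FPKM with PLG, without overlap (log2 change 0.75, SE 0.123, limma, adjusted p = 0.000124). Adgrl2, a latrophilin that binds teneurins and FLRT proteins, was at 10.5, 10.2, 10.6, 10.4 and 11.5 and at 5.03, 4.95, 4.35, 5.05 and 4.55 FPKM (log2 change -1.01, SE 0.0633, limma, adjusted p = 8.51e-09). No sample of either group crossed into the other for any of these 3 genes.

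**Figure D2:**
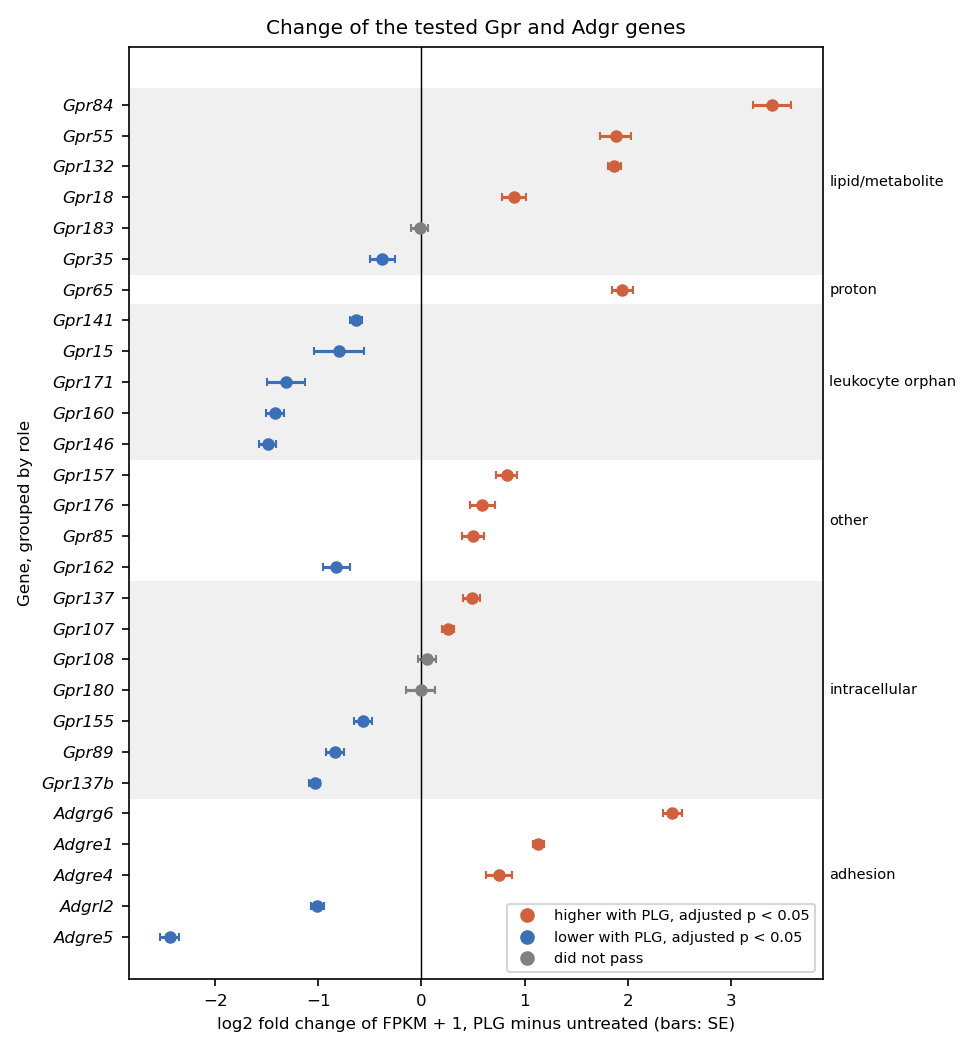
Log2 change of FPKM + 1, PLG minus untreated (x axis), of 28 of the 29 tested genes grouped by role, with the limma standard error as bars (n = 5 and 5). The 5 leukocyte orphans lie left of 0 and Gpr65 right of it, while the other roles hold genes on both sides, from Adgre5 at -2.44 to Gpr84 at 3.40.

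A total of 8 of the 60 genes under the filter passed in the fit of all genes, 5 higher and 3 lower, beside 15.4% of all genes under the filter (9.15% higher and 6.29% lower). Their levels are near or under 1 FPKM, so the reads are given with them. Exact two-sided permutation tests over samples gave p = 0.00794, the smallest that 252 assignments allow, for 7 of the 8, and 0.0159 for Gpr52. The 8 genes had been picked by limma on the same values, so these unadjusted p values are no independent support. The lowest PLG samples of Gpr33 and Adgrb2 held 3 and 2 reads. The falling genes were 3. Adgrg5 and Adgrg3, leukocyte adhesion receptors that flank Adgrg1 on chromosome 8, were at 0.758 to 1.07 and 0.615 to 1.29 FPKM untreated and at 0 to 0.144 and 0.139 to 0.348 FPKM with PLG. Those values rest on 525 against 62 reads for Adgrg5 (limma over all genes, adjusted p = 9.85e-07) and on 1223 against 462 reads for Adgrg3 (adjusted p = 0.000992). Adgrg1 between them overlapped, at 0 to 0.381 and 0 to 0.271 FPKM. Gpr34, a receptor of lysophosphatidylserine, was at 1.16, 1.21, 0.598, 0.838 and 0.535 FPKM untreated and at 0.039, 0, 0.089, 0.185 and 0.02 FPKM with PLG, without overlap (332 against 31 reads, limma over all genes, adjusted p = 0.000146); Cask, the gene whose intron holds it on the other strand, did not pass.

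Of the 5 that rose, 3 had no read in any untreated library. Adgrf1 (chr17:43270329-43324737, plus strand), a receptor of the fatty acid amide synaptamide, was at 0.471, 0.249, 0.336, 0.371 and 0.319 FPKM in the PLG samples, all above 0, on 327 reads; taking 3 reads for the whole untreated group as the limit, it was at least 82.7-fold higher (limma over all genes, adjusted p = 4.85e-06). Gpr33, a chemoattractant-like receptor that is a pseudogene in most humans, ranged over 0.044 to 0.648 FPKM on 109 reads (at least 27.6-fold higher, adjusted p = 0.00895). Adgrb2, a brain adhesion receptor, reached 0.008 to 0.113 FPKM on 132 reads (at least 33.4-fold higher, adjusted p = 0.00778). Gpr31b, whose human counterpart responds to a lipoxygenase product of arachidonic acid, was at 0.73, 0.689, 0.309, 1.204 and 0.54 FPKM with PLG, while its 12 untreated reads all came from sample 1 (adjusted p = 0.00117). Gpr52, an orphan of the striatum, was at 0.162, 0.51, 0.533, 0.472 and 0.354 FPKM with PLG and had 18 untreated reads, again all in sample 1 (adjusted p = 0.00374). A few reads decide a value at this level, and reads without molecular identifiers are not independent molecules, so that limit covers counting error only.

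**Figure D3:**
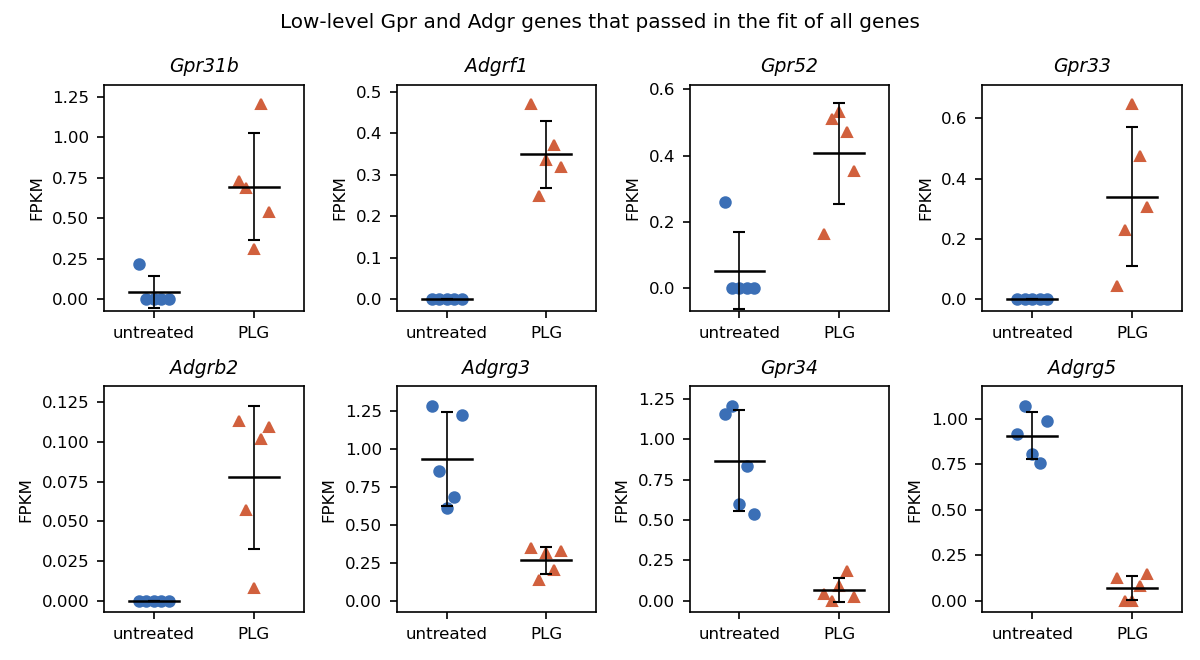
FPKM (y axes, each panel with its own scale) of the 8 genes under the filter that passed in the fit of all genes, with circles for untreated and triangles for PLG samples, horizontal bars at the group means and error bars of 1 SD (n = 5). Adgrf1, Gpr33 and Adgrb2 are at 0 in every untreated sample, and the single raised untreated point of Gpr31b and of Gpr52 is sample 1.

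The remaining 34 genes with at least 20 reads did not pass, and the values of 32 are given as FPKM ranges. Among adhesion receptors, the Adgra and Adgrb genes, whose products act in vessel growth and at synapses, were Adgra1 (0 to 0.046 untreated, 0 to 0.049 PLG), Adgra2 (0.06 to 0.459 untreated, 0.098 to 0.261 PLG), Adgra3 (0.099 to 0.943 untreated, 0.134 to 0.248 PLG), Adgrb1 (0 to 0.327 untreated, 0 to 0.037 PLG) and Adgrb3 (0 to 0.018 untreated, 0 to 0.022 PLG). Latrophilins and the calcium-binding giant Adgrv1 were Adgrl1 (0.122 to 0.495 untreated, 0.077 to 0.235 PLG), Adgrl3 (0 to 0.025 untreated, 0 to 0.024 PLG) and Adgrv1 (0 in all 5 untreated, 0 to 0.029 PLG). The Adgrf and Adgrg genes were Adgrf3 (0 to 0.089 untreated, 0 to 0.207 PLG), Adgrf5 (0 to 0.048 untreated, 0 to 0.063 PLG), Adgrg1 (0 to 0.381 untreated, 0 to 0.271 PLG) and Adgrg7 (0 to 0.162 untreated, 0 to 0.063 PLG). Adgrf3 and Adgrl1 came nearest to the threshold, with limma adjusted p values of 0.0525 and 0.0687.

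Among lipid, proton, leukocyte and intracellular genes the same class held Gpr174 (0 to 0.104 untreated, 0 in all 5 PLG), Gpr4 (0 to 0.354 untreated, 0 to 0.29 PLG), Gpr82 (0.063 to 0.828 untreated, 0.062 to 0.36 PLG), Gpr182 (0.03 to 0.304 untreated, 0 to 0.149 PLG), Gpr25 (0 to 0.671 untreated, 0 to 0.147 PLG), Gpr141b (0 to 0.332 untreated, 0 to 0.4 PLG) and Gpr137c (0 to 0.271 untreated, 0.118 to 0.178 PLG). Gpr82, which also lies inside Cask, 20.5 kb from Gpr34, had overlapping groups where Gpr34 did not. The other orphans, many of them known from the nervous system, were Gpr135 (0 in all 5 untreated, 0 to 0.134 PLG), Gpr151 (0 to 0.831 untreated, 0.034 to 0.679 PLG), Gpr152 (0 in all 5 untreated, 0 to 0.094 PLG), Gpr153 (0 to 0.15 untreated, 0.089 to 0.215 PLG), Gpr161 (0 to 0.035 untreated, 0 to 0.062 PLG) and Gpr17 (0 to 0.068 untreated, 0 to 0.336 PLG). Further ones were Gpr179 (0 to 0.14 untreated, 0.108 to 0.183 PLG), Gpr19 (0.493 to 1.32 untreated, 0.299 to 0.774 PLG), Gpr21 (0.119 to 0.405 untreated, 0.213 to 0.506 PLG), Gpr22 (0 to 0.326 untreated, 0 to 0.084 PLG), Gpr61 (0 to 0.109 untreated, 0 to 0.222 PLG), Gpr62 (0 to 0.141 untreated, 0 to 0.161 PLG) and Gpr75 (0 to 0.16 untreated, 0 to 0.09 PLG). Gpr19 reached the highest single value of this class, and its groups overlapped. Adjusted p values just above the threshold were those of Gpr153 (0.0507), Gpr182 (0.0563), Gpr179 (0.0596) and Gpr152 (0.0688), all from limma over all genes.

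At or near 0 were the 18 genes with fewer than 20 reads over all 10 libraries, among them Adgrd1, Adgrf2, Adgrf4, Adgrg2, Adgrg4, Adgrl4, Gpr1, Gpr101, Gpr119, Gpr149, Gpr158, Gpr173, Gpr26, Gpr37, Gpr37l1, Gpr45 and Gpr83. Their read totals ran from 1 for Gpr173 to 18 for Gpr158. Among all 89 members 16 had no read in any untreated library and 7 none in any PLG library, but none was without reads in both. The scaling depth was 31977229 to 42483872 reads in untreated and 37800144 to 70737080 reads in PLG libraries, and greater depth leaves fewer genes without a read. Shares over all genes were not computed beside the 16 and 7, and the part of depth in them was not tested. A further feature of the low class is that 13 members had reads in 1 library only, up to the 23 reads of Gpr174 in untreated sample 5.

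The partners of these receptors inside the cell held genes that were higher and genes that were lower with PLG; as a measure for each list, 29.1% of all tested genes were higher and 31.3% lower. Of 12 listed G protein alpha subunits, 8 were tested, of which 2 rose, 5 fell and Gna11 did not pass (median log2 change -0.34). Gnas, among those that fell (limma, adjusted p = 0.0445), had overlapping groups and did not pass in the fit of all genes (limma, adjusted p = 0.0798). Gna15, the promiscuous alpha subunit of blood cells, was at 28.1 ± 2.05 and 6.57 ± 1.06 FPKM (log2 change -1.95, limma, adjusted p = 3.53e-10); Gna12 was at 20.6 ± 1.39 and 10.2 ± 0.674 FPKM (log2 change -0.95, limma, adjusted p = 1.29e-08), while Gna13, its closest relative, rose. Gnai2, the abundant inhibitory subunit, was at 227 ± 8.05 and 164 ± 5.63 FPKM (log2 change -0.46, limma, adjusted p = 4.17e-07). Of 15 beta and gamma subunits 9 were tested, with 3 higher and 2 lower (median 0.13), 5 of 9 beside the 60.4% of all tested genes. Gng4, which passed the filter through the PLG group only, was at 0.0130 ± 0.0244 and 3.51 ± 0.285 FPKM (limma over all genes, adjusted p = 1.4e-09), Gnb4 at 1.146 ± 0.278 and 7.72 ± 0.341 FPKM (log2 change 2.03, limma, adjusted p = 3.66e-10) and Gng2 at 8.91 ± 1.05 and 3.01 ± 0.274 FPKM (log2 change -1.30, limma, adjusted p = 1.44e-08). Gnb1, the most abundant that did not pass, was at 79.2 ± 7.44 and 86.7 ± 4.29 FPKM.

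Receptor kinases and arrestins switch active receptors off. Of 10 tested genes 5 rose and 4 fell (median 0.26), where 29.1% of all tested genes rose and 31.3% fell. Arrb1 was at 48.8 ± 1.99 and 28.7 ± 1.14 FPKM (log2 change -0.74, limma, adjusted p = 7.1e-09) and Arrb2 moved the opposite way, at 43.2 ± 1.64 and 80.9 ± 6.79 FPKM (log2 change 0.89, limma, adjusted p = 1.44e-08); Grk3 was at 5.21 ± 0.844 and 12.0 ± 0.852 FPKM (log2 change 1.07, limma, adjusted p = 2.42e-07). Arrdc2 did not pass. Of 9 tested RGS genes, which speed the return of alpha subunits to rest, 5 rose and 3 fell (median 0.34), Rgs3 among those that rose having passed the filter through the PLG group only: Rgs1 was at 8.53 ± 0.536 and 22.5 ± 2.48 FPKM (log2 change 1.30, limma, adjusted p = 3.21e-09), Rgs2 at 16.8 ± 0.902 and 7.998 ± 0.836 FPKM (log2 change -0.99, limma, adjusted p = 3.39e-08) and Rgs12 at 1.96 ± 0.237 and 4.37 ± 0.263 FPKM (log2 change 0.86, limma, adjusted p = 4.44e-07), and Rgs19 did not pass. Rgs10, among the RGS genes that rose, had overlapping groups and did not pass in the fit of all genes (limma, adjusted p = 0.0537). In the cyclic AMP list 18 genes were tested, 8 rose and 6 fell (median 0.19), and Pde3b among those that rose passed the filter through the PLG group only. Pde4b, which breaks cyclic AMP down, was at 1.14 ± 0.252 and 19.5 ± 0.713 FPKM (log2 change 3.27, limma, adjusted p = 1.31e-12). Among the cyclases, which make it, Adcy6 was at 3.03 ± 1.30 and 32.1 ± 1.28 FPKM (log2 change 3.10, limma, adjusted p = 2.1e-09) and Adcy7 at 74.0 ± 2.66 and 36.2 ± 1.59 FPKM (log2 change -1.01, limma, adjusted p = 2.42e-10). Pde8a did not pass. All tested genes have a median log2 change of -0.02.

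Enzymes and ligands tied to the members gave 12 tested genes of 23 in the table, 5 higher and 7 lower (median -0.34), beside 29.1% higher and 31.3% lower of all tested genes. Pla1a and Ch25h, both among the 5, passed the filter through the PLG group only. Pla1a, a phospholipase that releases lysophosphatidylserine, the ligand of Gpr34, was at 0.292 ± 0.354 and 12.5 ± 1.49 FPKM (log2 change 3.41, limma over all genes, adjusted p = 5.62e-08). Tgm2, a transglutaminase bound by Adgrg1, was at 8.50 ± 0.897 and 38.2 ± 2.74 FPKM (log2 change 2.05, limma, adjusted p = 3.12e-11). Psap, prosaposin, proposed as a ligand of Gpr37 and Gpr37l1, was at 5931 ± 212 and 2215 ± 63.0 FPKM (log2 change -1.42, limma, adjusted p = 8.65e-11), and both receptors had under 20 reads. A few were chosen after their values were seen. Ch25h, which makes the precursor of the oxysterol ligand of Gpr183, was at 0.429 ± 0.293 and 4.12 ± 1.42 FPKM (limma over all genes, adjusted p = 3.66e-05), and Cyp27a1, another sterol hydroxylase, at 6.85 ± 0.670 and 1.82 ± 0.595 FPKM (log2 change -1.50, limma, adjusted p = 1.77e-07), beside a Gpr183 that did not pass. Prnp, whose product binds Adgrg6, was at 7.95 ± 0.443 and 16.1 ± 1.59 FPKM (log2 change 0.93, limma, adjusted p = 5.8e-08). Flrt3, a latrophilin ligand, was at 15.1 ± 2.43 and 49.4 ± 1.48 FPKM (log2 change 1.66, limma, adjusted p = 1.61e-09). Flrt2, of the same FLRT family, went the other way, from 8.149 to 10.809 FPKM untreated to 4.824 to 5.565 FPKM with PLG (log2 change -0.71, limma, adjusted p = 3.18e-06). Also lower were Abhd16a, Abhd12, Ddhd1 and Napepld (log2 change -0.42, -0.69, -0.83 and -0.27, limma, adjusted p = 0.00307, 5.75e-07, 4.4e-09 and 0.0354). The groups of Napepld overlapped, at 3.087 to 4.402 FPKM untreated and 2.782 to 3.697 FPKM with PLG. It did not pass in the fit of all genes (limma, adjusted p = 0.0628). Cd55, the ligand of Adgre5, was low in both groups (0 to 0.407 and 0.047 to 0.256 FPKM).

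**Figure D4:**
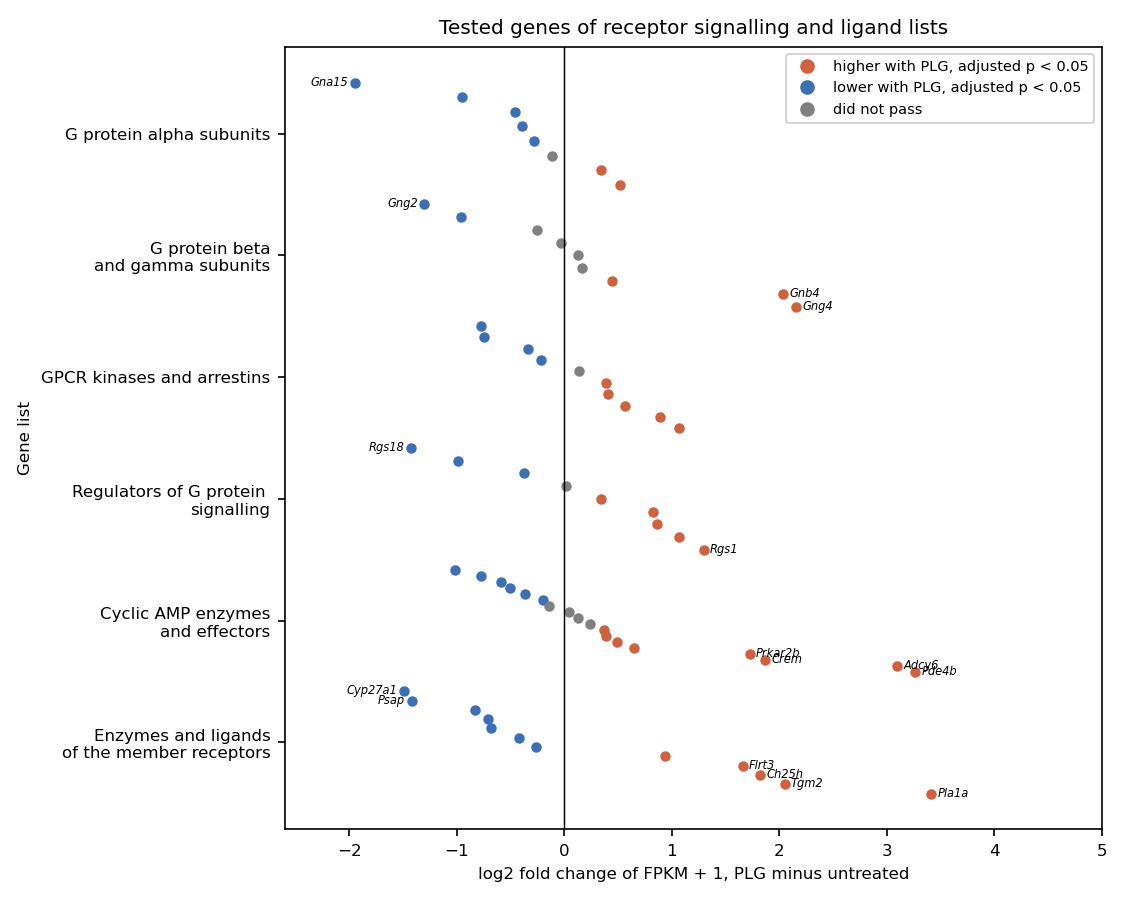
Log2 change of FPKM + 1, PLG minus untreated (x axis), of each tested gene in 6 lists of signalling partners and of ligand enzymes, 1 point per gene, coloured by whether it passed at an adjusted p of 0.05 and named where the change is large. Each list holds points on both sides of 0, from Gna15 at -1.95 to Pla1a at 3.41; Pla1a, Ch25h, Gng4, Rgs3 and Pde3b are under 1 FPKM in every untreated sample.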

How the data were processed

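RNA-seq of 10 samples, 5 untreated and 5 with PLG, was used as grouped by the labels. The authors deposited FPKM per protein-coding gene with 3 decimals; per the submitters' processing notes, the build was GRCm38.p6 and the tools listed, without their roles, were STAR 2.7.3a, featureCounts 2.0.0, cutadapt 2.10, DESeq2 1.24.0 and FastQC 0.11.9. No source used here gives the annotation release, the strand setting or the handling of shared reads. The steps of low FPKM gave each library's denominator (31977229 to 70737080) and the reads per gene, whole within 0.1 read for at least 99.985% of values tested. Since FPKM is no count, groups were compared with limma 3.58.1 (R 4.3.3, Python 3.11.15) on log2(FPKM + 1) with an intensity trend, treatment as the only term and Benjamini-Hochberg adjustment over the whole table, with and without a filter of 1 FPKM in at least 5 samples. Genes under the filter had exact permutation tests.

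Members, role groups and gene lists were chosen with earlier results of these data known, so they are no independent support. Members are named except 4, which are not reported here by name; of each list, the 3 smallest p and the most abundant gene that did not pass. Alternatives were pseudocounts, filters, scalings, eBayes options, voom on the recovered reads, a replicate block and leaving out each sample. The table's coordinates matched GENCODE M21 for all members except Adgrf2 and Gpr52; overlaps come from that annotation, promoters from RefSeq (GRCm38.p6).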

Additional observations from a re-analysis of the deposited data

Results flagged for a closer look

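In 19 of the 129 gene and group combinations looked at, 1 sample lay far from the other 4 by Dixon's test with a critical value of 0.71. Chance flags about 1 in 20 groups of normally spread values, a rate that does not hold for genes with few reads. Where 4 samples hold no read and 1 holds some, the ratio is 1 and a flag is certain, as for most flags under the filter. The count of flags is therefore no measure of aberrant samples. Only 3 of the 19 were in genes that passed the filter. Adgrl2 was at 11.5 FPKM in untreated sample 5, with the others at 10.2 to 10.6, Gpr155 was at 1.248 FPKM in PLG sample 1, with the others at 0.943 to 1.02, and Gpr183 was at 5.21 FPKM in PLG sample 1, with the others at 4.55 to 4.68.

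The other 16 were in genes under the filter. In untreated sample 1 these were Adgrl3 (0.025 FPKM), Gpr31b (0.22) and Gpr52 (0.259), and in untreated sample 2 Adgra3 (0.943, on 248 reads) and Adgrf5 (0.048). Untreated sample 3 held Adgrb3 (0.018), Adgrb1 (0.327) and Gpr25 (0.671), sample 4 Adgrg7 (0.162), and sample 5 Gpr161 (0.035), Adgrf3 (0.089) and Gpr174 (0.104). Among PLG samples, Gpr17 stood out in sample 2 (0.336), and Adgra1 (0.049), Gpr75 (0.09) and Gpr25 (0.147) in sample 3. Apart from Adgra3, Adgrb1 and Gpr17 these values rest on 6 to 26 reads.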

How the results depend on the processing

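Under 22 alternative settings all 566 values of the 26 members that passed in the filtered fit kept their direction and stayed past the threshold, and the 8 low genes that passed did so in all 20 settings of the fit of all genes. In the fit of all genes Gpr35 and Gpr15 lost their calls under scaling to a common sum (adjusted p = 0.0723 and 0.0784) and without some single samples, as given with them. Such a sum holds Gm10800, a repeat-like gene model at 8221 to 59685 FPKM in every library but PLG samples 3 and 4. There the top gene was B2m, at 4352.5 and 4149.2 FPKM. The part of Gm10800 in the lost calls was not tested. Leaving out each sample in turn left 14 members higher and 12 lower in the filtered fit and 19 to 21 and 13 to 15 in the fit of all genes. With a filter of 5 FPKM fewer genes were tested and 8 members were lower. Changes that reversed were all in genes that did not pass. Log2 changes turned to 0.0336 and 0.0205 for Gpr180 and Gpr183 under scaling to a common sum and to 0.0289 and 0.0164 under median-of-ratios scaling; under quantile normalization they were -0.0316 for Gpr108, -0.00779 for Adgrb3 and -0.000344 for Adgrl3; with 3 repeat-like gene models removed and the remaining genes scaled to a common sum, changed together and added after seeing the data, Gpr108 was at -0.0087. With voom on the recovered reads Adgrg7 was at 0.57, Gpr4 at 0.252 and Gpr137c at 0.48. Without single samples the ranges were -0.085 to 0.0949 for Gpr180, -0.0595 to 0.0498 for Gpr183, -0.0175 to 0.103 for Gpr108, -0.00155 to 0.00915 for Adgrb3, -0.0864 to 0.0229 for Gpr4, -0.166 to 0.0398 for Adgra3, -0.0959 to 0.00587 for Gpr22, -0.148 to 0.0396 for Gpr25, -0.0267 to 0.031 for Adgrg7 and -0.0218 to 0.00279 for Adgra1. The cause was not tested. Deviations of same-numbered samples correlated at -0.121 to 0.0988, and 1 of 5 untreated samples correlated best with its own number. These values cannot decide whether the replicate numbers mark a pairing, which no label states. With the number as a block 14 members were higher and 12 lower in the filtered fit. In the fit of all genes the block gave 21 higher and 16 lower, and Adgrl1, Gpr153 and Adgrf3 also passed. Other settings of that fit passed further low genes. Over its 20 alternatives, the block among them, Gpr153 passed in 7, Adgrf3 in 5, Gpr182 in 4, and Adgrl1, Gpr152 and Gpr179 in 3 each. Adgrf5 passed in 2, and Gpr82 and Gpr137c in 1 each. At a few reads per library, depth limits the low genes: a gene with no read in a group is not shown to be silent. Overlapping and antisense genes cannot be separated without the strand setting.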
